A study of Homo sapiens with 6 samples.

Results

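The genes described are 44 ribosome biogenesis and nucleolar genes, given by their symbols as a list, and each of the 44 was found by symbol in a table of read counts for 25349 genes. Human SCC-9 cells, an established line from a squamous cell carcinoma of the tongue, were transfected with siRNA against exon 7 of MKI67 (siE7, 3 libraries) or with a nonspecific siRNA (siNC, 3 libraries). Both groups received 10 nM siRNA on day 0 and again on day 2, were grown in medium with 400 ng/mL hydrocortisone, and gave RNA on day 4 for poly(A)-selected, directional libraries. The comparison asks which transcripts change when the MKI67 form that contains exon 7 is depleted. The methods of the study list 3 siRNAs against exon 7, and which of them was in these libraries is not given in the sources used here. A single line was used, and nothing states that libraries of a group came from separate cultures, so p-values measure the spread between these libraries, which may be technical.

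Ribosomes are built in the nucleolus, where RNA polymerase I copies the ribosomal DNA into a long precursor RNA. Box C/D and box H/ACA small nucleolar ribonucleoproteins (snoRNPs) modify that precursor, the small subunit processome folds and cuts its 5′ part into the RNA of the 40S subunit, and a separate set of assembly factors matures the 60S subunit. Ki67, the protein of MKI67, coats mitotic chromosomes and lies at the rim of the nucleolus in interphase, and many ribosome biogenesis genes are known targets of MYC, which binds the E-box CACGTG together with its partner MAX.

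A promoter motif that was not used to list the members was found in a part of them, and 6 promoters are shown because they hold it and belong to members that were lower or higher with siE7. Of the 44 genes, 38 have a promoter in RefSeq (GRCh38.p14, 250 bases before to 50 bases after each start site), and the E-box CACGTG, which reads the same on both strands, was present in 19 of the 38 (50.0%). In the same windows it was present in 12.4% of the tested genes with a promoter (1308 of 10529) and in 8.77% of all 27305 genes with one. Of the 21 matches in the members, 19 began within 50 bases of the start site. The windows below run from 50 bases before to 30 bases after the start, 5′ to 3′ on the strand of the gene, and capitals mark the E-box.
UTP4, chr16:69132599-69132678, plus strand: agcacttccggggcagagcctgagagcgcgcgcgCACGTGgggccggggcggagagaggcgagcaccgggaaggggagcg
UTP20, chr12:101280055-101280134, plus strand: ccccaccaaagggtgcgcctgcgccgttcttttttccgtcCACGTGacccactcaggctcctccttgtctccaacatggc
RRP9, chr3:51941875-51941954, minus strand: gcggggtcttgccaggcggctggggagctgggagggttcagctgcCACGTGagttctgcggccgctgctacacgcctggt
FBL, chr19:39846350-39846429, minus strand: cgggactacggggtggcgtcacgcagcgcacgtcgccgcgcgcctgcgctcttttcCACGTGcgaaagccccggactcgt
MRTO4, chr1:19251755-19251834, plus strand: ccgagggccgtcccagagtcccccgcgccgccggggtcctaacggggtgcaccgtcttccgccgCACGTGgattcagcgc
GNL2, chr1:37595908-37595987, minus strand: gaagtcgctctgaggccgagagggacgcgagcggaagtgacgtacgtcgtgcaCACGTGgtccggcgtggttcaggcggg
The E-box lay on both sides of the start, from the position 16 bases before it in UTP4 to 15 bases after it in MRTO4. Of the genes with the E-box, UTP4, UTP20, RRP9, FBL and MRTO4 were lower with siE7 and GNL2 was higher. The other 13 genes with it were not called. The libraries of GNL2 overlapped between the groups, and its call was lost in 7 of the 15 alternatives run. Among members with a promoter, the E-box was present in 5 of 6 called lower, 1 of 2 called higher and 13 of 30 not called. A relation of the E-box to the direction was not tested. NOP56 and POLR1C, which were also called, have a promoter window without it. A match is a description of these letters and was not tested as a binding site. NOP58, DDX18, TCOF1, RRP12, NOLC1 and BOP1 have no entry in the promoter table.

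The libraries held between 25608192 and 29550264 counted reads, and 14661 genes passed the filter on low counts. MKI67 (ENSG00000148773.14, chr10:128096659-128126423) was at 1072, 1028 and 1076 CPM (reads on the gene as a share of the library's scaled total) in siNC and at 112, 124 and 108 CPM in siE7, a log2 fold change of -3.21 (SE 0.11, edgeR adjusted p = 6.7e-08). Counts per gene do not separate the forms with and without exon 7. Squamous epithelial markers were present in each library, with 23300 to 24800 CPM summed over 8 genes in siNC and 21300 to 27800 CPM in siE7. Of the 8, 5 were lower and 1 was higher with siE7 (median log2 fold change -0.469), and the part of this in the results below was not tested. Fibroblast markers summed to 24.1 CPM at most, the CD14 and CD68 that the table holds of 6 immune markers to 3.6 CPM at most, and endothelial markers to 0.492 CPM at most. Levels are relative to the reads of each library, so fewer cells of a type and less RNA per cell cannot be told apart.

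One library stood apart. Over genes, siE7 replicate 1 differed from siE7 replicates 2 and 3 by a chi-square of 62 and 73.6 per degree of freedom, against 6.26 between replicates 2 and 3 and 5.68 to 6.35 within siNC. The first principal component (67.2% of the variance) separated siE7 from siNC, and the second (19.85%) separated siE7 replicate 1 from the other 5 libraries. The calls below are therefore also given without it. The 6 libraries otherwise fall into no batch that the labels name.

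Every one of the 44 members passed the filter, and the lowest count of a member in a library was 101. At an adjusted p under 0.05 (edgeR quasi-likelihood test, Benjamini-Hochberg over the tested genes), 7 members were lower with siE7, namely BOP1, UTP4, UTP20, MRTO4, RRP9, NOP56 and FBL. Another 4 were higher, namely NOLC1, GNL2, RRP12 and POLR1C. The share called was 25.0% of the members, against 34.0% of all tested genes, of which 16.0% were lower and 18.0% higher. NOLC1 alone was a differentially expressed gene (DEG) in the sense of the study, with a log2 fold change beyond 1 as well, while 12.2% of the tested genes were DEGs. The median log2 fold change of the members was 0.00939, against 0.0768 for all tested genes, and 37 of the 44 lay between -0.5 and 0.5.

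The direction of the smaller changes depends on the scaling. Without composition scaling the median of all tested genes moved by 0.168 (log2) to 0.245 and that of the members to 0.179. The split became 4 lower and 10 higher members, against 7 and 4 with TMM scaling. Over all tested genes it became 1632 lower and 4024 higher, against 2351 and 2639 with TMM scaling. The members' median was -0.0383 with RLE scaling, which gave 7 lower and 3 higher, and 0.0352 with upper-quartile scaling, which gave 6 lower and 5 higher. As a share of all counted reads, without scaling, the 44 genes together took 0.628%, 0.636% and 0.642% in siNC and 0.735%, 0.74% and 0.73% in siE7. This sum includes NOLC1, at 191 to 217 CPM in siNC and 559 to 643 CPM in siE7. The TMM factors were 0.936 to 0.954 in siNC and 1.00 to 1.10 in siE7. With TMM scaling the members' median log2 fold change was 0.00939.

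Every siNC library lay apart from every siE7 library for 13 members (29.5%), against 47.6% of the tested genes. The siE7 libraries were all lower for FBL, NOP56, NHP2, UTP4, UTP20, RRP9, EBNA1BP2, BOP1 and MRTO4 and all higher for POLR1C, GAR1, NOLC1 and RRP12. Of the 11 members called, GNL2 was the exception whose groups overlapped. For a single gene the exact permutation test (two-sided) of 3 against 3 libraries cannot go below 0.1, which is the value of these 13.

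**Figure D1:**
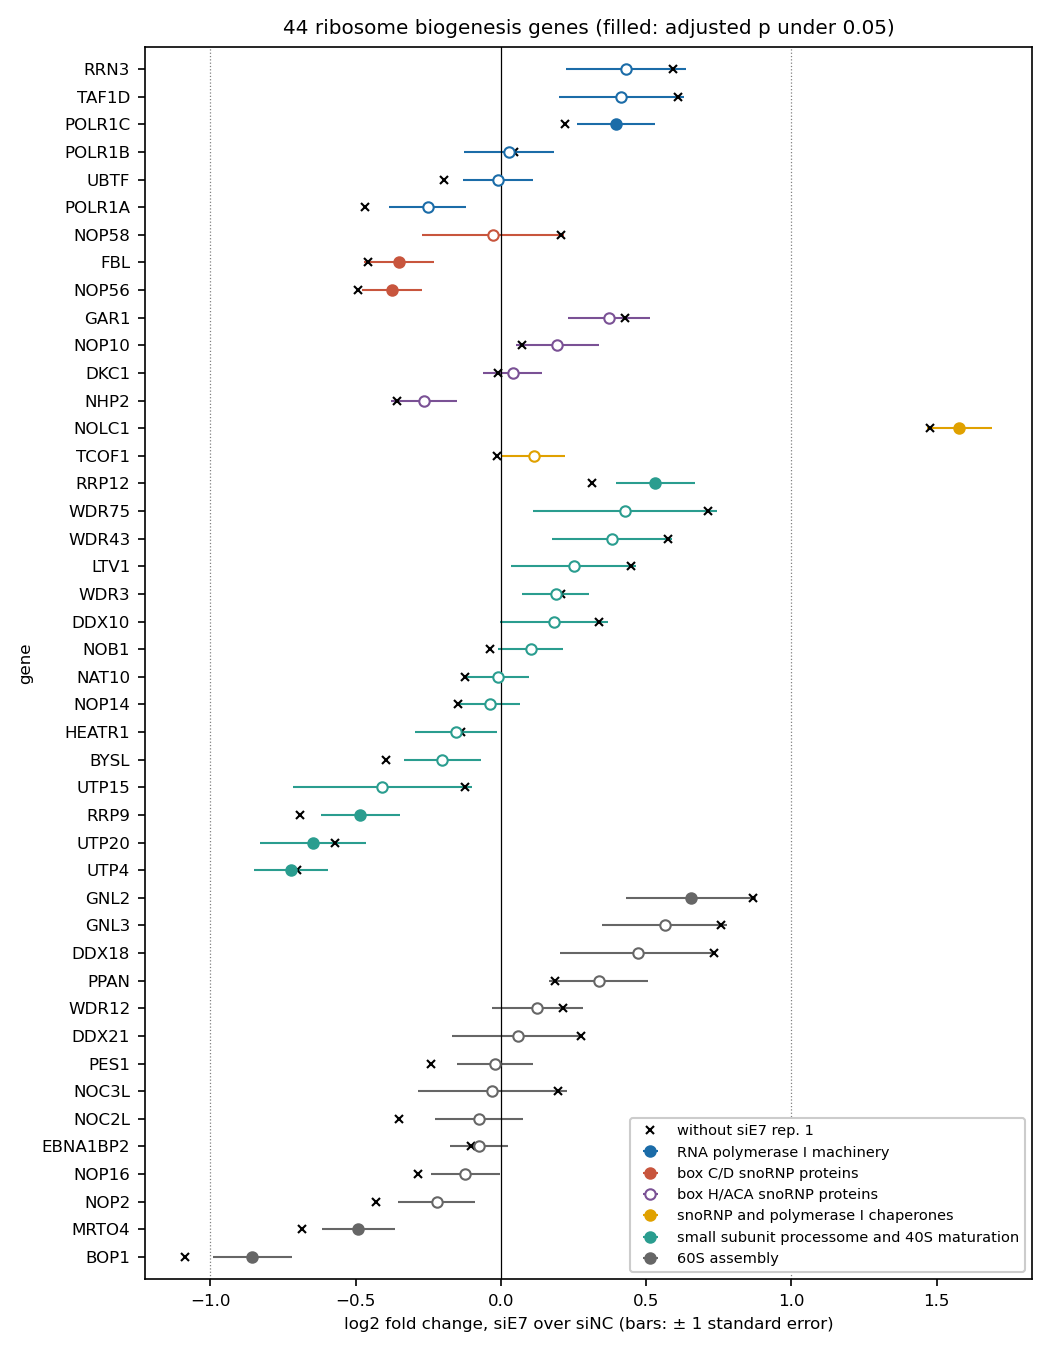
Log2 fold change of siE7 over siNC (x axis) for the 44 genes (y axis), ordered within their roles. Circles with bars are the fitted value ± 1 standard error from 6 libraries, filled where the adjusted p is under 0.05, crosses are the value without siE7 replicate 1, and dotted lines mark -1 and 1. NOLC1 at 1.58 stands alone on the right, BOP1 at -0.86 is the lowest, and most circles lie between -0.5 and 0.5.

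NOLC1 was the member that changed most. It encodes Nopp140, a phosphoprotein that shuttles between the nucleolus and Cajal bodies and acts as a chaperone of snoRNPs (ENSG00000166197.17, chr10:102152176-102163871, plus strand). Its level was 191, 207 and 217 CPM in siNC and 643, 633 and 559 CPM in siE7. The lowest siE7 library was above the highest siNC library by a wide margin, and siE7 replicate 1 lay beside the others. The log2 fold change was 1.58 (SE 0.11, edgeR adjusted p = 4e-06), a 2.98-fold higher level, and it was 1.48 without siE7 replicate 1.

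TCOF1 encodes treacle, which resembles Nopp140 in its acidic and lysine-rich repeats and recruits factors to the ribosomal DNA. TCOF1 was at 520.0, 582 and 580.0 CPM in siNC and at 658, 581 and 579 CPM in siE7. Its siE7 libraries overlapped siNC, with replicate 1 the highest of the 6. Its log2 fold change was 0.11 (SE 0.11, edgeR adjusted p = 0.45), and it passed the threshold only without composition scaling (0.28, edgeR adjusted p = 0.024). Within each library the reads of NOLC1 were 0.367, 0.355 and 0.374 times those of TCOF1 in siNC and 0.976, 1.09 and 0.965 times in siE7. This ratio, which needs no scaling between libraries, was chosen after the values had been seen.

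**Figure D2:**
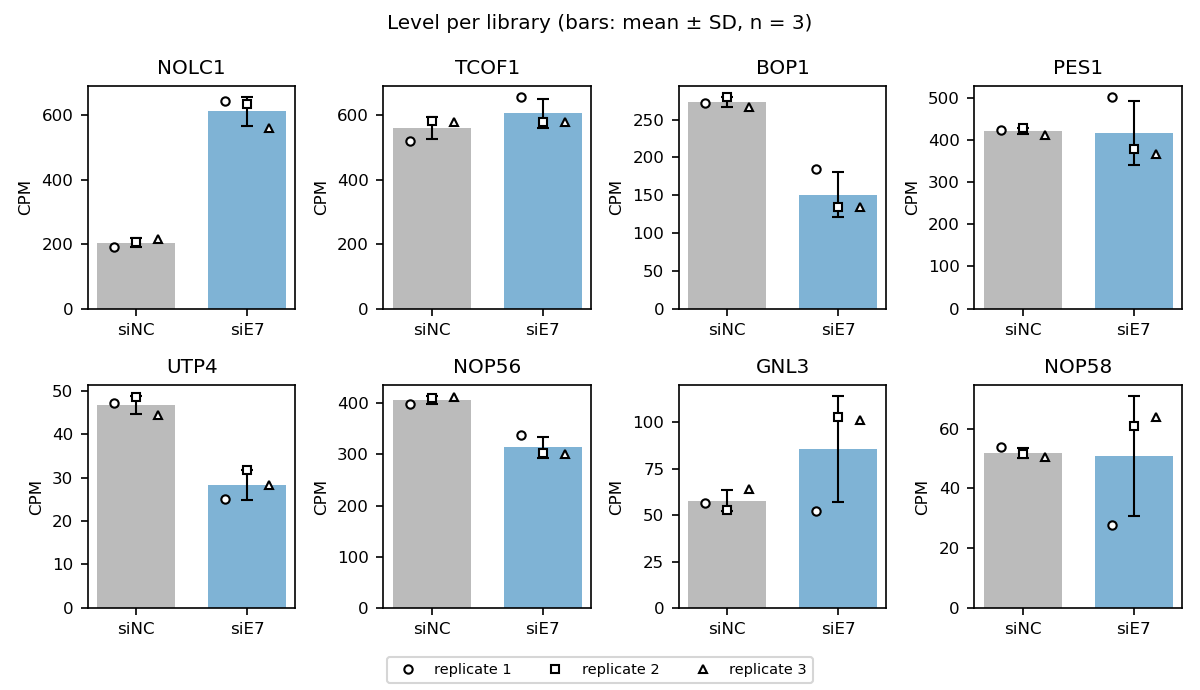
CPM (y axis, from 0) of 8 members in siNC and siE7. Bars are the mean ± SD of 3 libraries and symbols mark replicates 1 to 3. NOLC1 is at 191 to 217 CPM in siNC and at 559 to 643 CPM in siE7, and BOP1 is lower in each siE7 library, while for GNL3 and NOP58 siE7 replicate 1 lies below siNC and the other 2 siE7 libraries lie above it.

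The 6 genes of the RNA polymerase I machinery held 1 call. POLR1C, a subunit shared by RNA polymerases I and III (ENSG00000171453.20, chr6:43509702-43562419), was at 29.99, 27.4 and 26.9 CPM in siNC and at 42.65, 33.4 and 34.9 CPM in siE7. The siE7 libraries were all higher, and the log2 fold change was 0.40 (SE 0.13, edgeR adjusted p = 0.041). Exons of POLR1C overlap those of XPO5, YIPF3 and LRRC73 in the annotation, and reads of overlapping genes cannot be told apart where the strand setting of the counting is not known.

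UBTF, the factor that bends and opens the ribosomal DNA for polymerase I, was at 419.6, 417 and 420.0 CPM in siNC and at 486, 392 and 370.0 CPM in siE7. Replicate 1 was above and replicates 2 and 3 were below each siNC library, which left a log2 fold change of -0.01 (SE 0.12). POLR1A, the largest subunit of the polymerase, had a log2 fold change of -0.25 and POLR1B, the second largest, of 0.03, both short of the threshold. RRN3, which couples growth signals to the polymerase, had a value of 0.43, and TAF1D, a subunit of the promoter factor SL1, of 0.41. For RRN3 and TAF1D siE7 replicates 2 and 3 were above siNC and replicate 1 was below it. Without replicate 1, RRN3 (0.59), TAF1D (0.61) and POLR1C (0.22) were higher and POLR1A (-0.47) and UBTF (-0.20) lower at an adjusted p under 0.05.

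Among the core proteins of the box C/D snoRNPs, which carry out 2′-O-methylation, both NOP56 and FBL were lower. NOP56 (ENSG00000101361.17, chr20:2652593-2658393) was at 398, 411 and 412 CPM in siNC and at 337.5, 302 and 301 CPM in siE7. The groups did not overlap, with a log2 fold change of -0.37 (SE 0.10, edgeR adjusted p = 0.016). Exons of NOP56 overlap annotated snoRNAs such as SNORD57 and SNORD86.

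FBL encodes fibrillarin, the methyltransferase of the particle, and was at 96.05, 121 and 106 CPM in siNC and at 89.5, 79.9 and 84.0 CPM in siE7. Its log2 fold change was -0.35 (SE 0.12, edgeR adjusted p = 0.041). NOP58, the partner of NOP56 in the same particle, was at 53.7, 51.4 and 50.4 CPM in siNC and at 27.6, 60.8 and 64.1 CPM in siE7. Here replicate 1 was the lowest of the 6 libraries and replicates 2 and 3 were the highest, and the log2 fold change was -0.03 (SE 0.24) with replicate 1 and 0.21 without it. Reads of NOP56 per read of FBL were 3.4 to 4.14 in siNC and 3.59 to 3.79 in siE7, so the groups overlapped in this ratio.

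Of the 4 proteins of the box H/ACA snoRNPs, which carry out pseudouridylation, 0 passed the threshold in edgeR, and 0 in DESeq2 and in limma-voom. By unadjusted p under 0.05, NHP2 and GAR1 differed, as did 6527 of the 14661 tested genes. GAR1 was at 25.5, 26.1 and 23.3 CPM in siNC and at 26.8, 35.4 and 34.7 CPM in siE7. Its siE7 libraries were all higher, with a log2 fold change of 0.37 (SE 0.14, edgeR adjusted p = 0.064). DKC1, the pseudouridine synthase dyskerin, was at 324, 343 and 362 CPM in siNC and at 348, 364 and 346 CPM in siE7, with overlapping groups and a log2 fold change of 0.04 (SE 0.10). NHP2 and NOP10, the 2 smaller core proteins, had log2 fold changes of -0.27 and 0.19. Without siE7 replicate 1, GAR1 was higher (0.43) and NHP2 lower (-0.36) at an adjusted p under 0.05.

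Of the 15 genes of the small subunit processome and 40S maturation, UTP4, UTP20 and RRP9 were lower and RRP12 was higher. UTP4, also known as cirhin and a part of the t-UTP module that assembles first on the precursor (ENSG00000141076.18, chr16:69131291-69231130), was at 47.3, 48.5 and 44.4 CPM in siNC and at 24.98, 31.7 and 28.3 CPM in siE7. The groups lay well apart, with a log2 fold change of -0.72 (SE 0.13, edgeR adjusted p = 0.0014). HEATR1 and UTP15, which belong to the same module, had log2 fold changes of -0.15 and -0.41 and did not pass the threshold. Reads of UTP4 per read of HEATR1 were 2.41 to 2.49 in siNC and 1.59 to 1.72 in siE7. This ratio was not among the planned results, and no ratio to UTP15 was taken. On the log2 scale, siE7 replicate 1 differed from the mean of siE7 replicates 2 and 3 by -0.257 for UTP4, -0.235 for HEATR1 and -1.33 for UTP15.

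UTP20, a very large scaffold protein, was lower by a log2 fold change of -0.65, and RRP9, which binds the U3 snoRNA, by -0.48. RRP12, a factor of subunit export, was higher by 0.53, and an exon of it overlaps an unnamed annotated gene. NAT10, the cytidine acetyltransferase of 18S rRNA, was closest to no change. It was at 225.5, 239 and 243 CPM in siNC and at 251, 235 and 216 CPM in siE7, with a log2 fold change of -0.01 (SE 0.11). Values for the genes of this role short of the threshold ranged from -0.41 (UTP15) to 0.43 (WDR75).

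WDR75, WDR43, DDX10 and LTV1 shared 1 pattern, in which siE7 replicates 2 and 3 were above each siNC library and replicate 1 was below. WDR75, a further t-UTP protein, was at 7.08, 5.64 and 6.36 CPM in siNC and at 3.94, 11.0 and 10.7 CPM in siE7. Without replicate 1 these 4 and WDR3 were higher, with log2 fold changes from 0.21 (WDR3) to 0.71 (WDR75), and BYSL (-0.40) and NOP14 (-0.15) were lower, at an adjusted p under 0.05. NOB1, the nuclease that makes the 3′ end of 18S rRNA, was called neither with that library nor without it.

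Of the 14 genes of 60S assembly, BOP1 and MRTO4 were lower and GNL2 was higher. BOP1 (ENSG00000261236.8, chr8:144262045-144291438) is the central subunit of the PeBoW complex of PES1, BOP1 and WDR12, which acts in the processing of 28S and 5.8S rRNA. It was at 272, 280.3 and 266 CPM in siNC and at 184.5, 134 and 134 CPM in siE7. No library of one group came near the other, and the log2 fold change was -0.86 (SE 0.14, edgeR adjusted p = 0.00077). It was -1.09 without siE7 replicate 1, and BOP1 was 1 of 2 members that were DEGs in that fit. An exon of BOP1 overlaps the microRNA gene MIR7112 in the annotation.

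The partners of BOP1 did not pass the threshold. PES1, called pescadillo, was at 423, 428 and 413 CPM in siNC and at 502.5, 379 and 365 CPM in siE7, with a log2 fold change of -0.02 (SE 0.13). WDR12 had a log2 fold change of 0.13. Within each library the reads of BOP1 were 0.643, 0.655 and 0.645 times those of PES1 in siNC and 0.367, 0.354 and 0.367 times in siE7. In this ratio, chosen after the values had been seen, siE7 replicate 1 lay at the level of the other 2. Reads of BOP1 per read of WDR12 were 10.3, 10.1 and 8.72 in siNC and 7.68, 3.95 and 3.91 in siE7. There the groups were also apart, but siE7 replicate 1 lay between siNC and siE7 replicates 2 and 3. The reads of PES1 per read of WDR12 overlapped between the groups, at 13.5 to 16.1 in siNC and 10.7 to 20.9 in siE7.

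MRTO4, a factor that holds the place of the ribosomal stalk on the pre-60S particle, was lower by a log2 fold change of -0.49. GNL2, a GTPase of pre-60S export, was at 56.5, 56.3 and 58.2 CPM in siNC and at 52.2, 106.8 and 110.2 CPM in siE7. Replicates 2 and 3 were well above siNC and replicate 1 was below it, so the log2 fold change of 0.65 (SE 0.22, edgeR adjusted p = 0.042) rests on 2 of the 3 siE7 libraries. Exons of GNL2 overlap those of DNALI1. GNL3, or nucleostemin, a related GTPase found in proliferating cells, behaved in the same way, at 56.4, 53.04 and 64.2 CPM in siNC and 52.4, 102.9 and 101.5 CPM in siE7, and was not called (0.56, edgeR adjusted p = 0.063). The ratio of GNL3 to GNL2 reads was 0.942 to 1.1 in siNC and 0.921 to 1.0 in siE7.

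NOC3L, which loads with NOC2L on early pre-60S particles, was at 18.3, 14.6 and 14.3 CPM in siNC and at 8.66, 18.0 and 19.6 CPM in siE7, with a log2 fold change of -0.03 (SE 0.26). The RNA helicases DDX18 (0.47) and DDX21 (0.06) were likewise low in replicate 1 and high in replicates 2 and 3. NOP2, a cytosine methyltransferase of 28S rRNA, had a value of -0.22 and NOP16 of -0.12. PPAN had a value of 0.34, and its reads cannot be told apart from those of the readthrough gene PPAN-P2RY11. Without siE7 replicate 1, GNL3, DDX18, DDX21 and WDR12 were also higher and PES1, NOP2, NOP16 and NOC2L also lower at an adjusted p under 0.05.

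Per length of transcript, EBNA1BP2, NOC2L and NOP56 were the most abundant members in siNC, at 399.7, 263 and 213 CPM per kilobase. In siE7 they were at 379, 249.8 and 164.0 CPM per kilobase, with PES1 (183) and NOLC1 (164.2) above NOP56. UTP20 (1.78) and UTP15 (1.91) were the least abundant in siNC on this scale. EBNA1BP2, a scaffold of early 60S assembly, was at 535, 539.6 and 547 CPM in siNC and at 486, 524 and 527 CPM in siE7. All its siE7 libraries were lower, but the log2 fold change was only -0.08 (SE 0.10, edgeR adjusted p = 0.58). NOC2L was at 735.5, 707 and 735 CPM in siNC and at 878, 613 and 576 CPM in siE7, and its log2 fold change was -0.08 (SE 0.15) with replicate 1 and -0.35 without it.

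**Figure D3:**
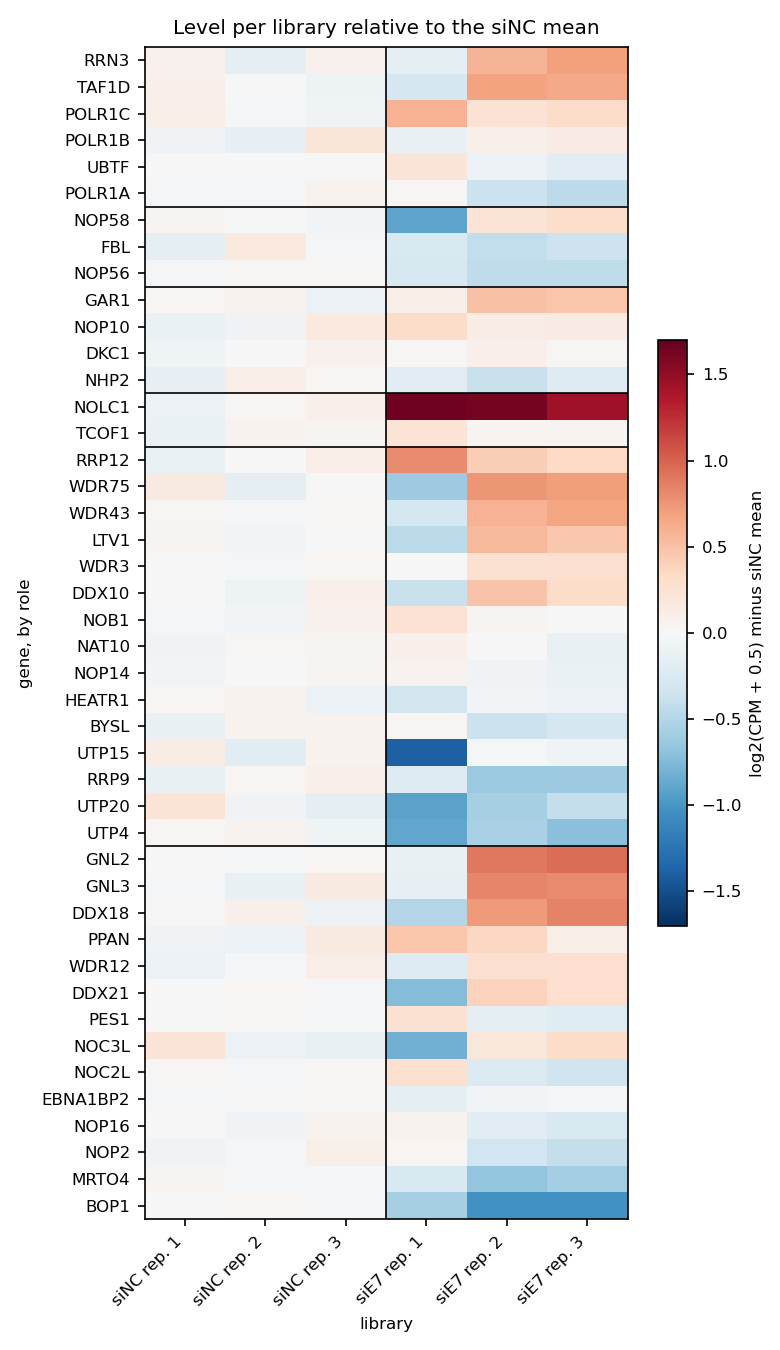
Level of each of the 44 genes (rows, grouped by role) in each library (columns), as log2(CPM + 0.5) minus the mean of the siNC libraries, from blue (lower) to red (higher). NOLC1 is high and BOP1 and UTP4 are low in each siE7 library, while for 12 genes the column of siE7 replicate 1 is blue where replicates 2 and 3 are red.

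The members divided by how siE7 replicate 1 compared with replicates 2 and 3. Replicates 2 and 3 were both above each siNC library for 17 members and both below for 17. Of the first 17, replicate 1 was below each siNC library for 12, which are RRN3, TAF1D, NOP58, WDR43, WDR75, DDX10, LTV1, WDR12, GNL2, GNL3, DDX18 and DDX21. Of the second 17, it was above each siNC library for 5, which are UBTF, NOP14, PES1, NOP16 and NOC2L. These counts were not made over all tested genes, of which 58.4% were called without siE7 replicate 1. The difference of replicate 1 from the mean of replicates 2 and 3 ran with the GC content of the transcript. Across the 44 members Pearson's r was 0.855 and Spearman's rho 0.888, and across 14639 tested genes they were 0.724 and 0.75. These are correlations across genes of the same libraries, given as a description.

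The 22 members with the lower GC content (37.7% to 47.2%) had a median difference of -0.865 on the log2 scale, and 21 of them were lower in replicate 1. In the 22 with the higher GC content (47.9% to 65.6%) the median was 0.302, and 21 were higher. Between siE7 replicates 2 and 3 the correlation with GC content was 0.208 across the members and 0.0278 across all tested genes. For siNC replicate 1 minus the mean of siNC replicates 2 and 3 it was -0.541 across the members and -0.0798 across all tested genes. The mean of siE7 replicates 2 and 3 minus that of siNC also ran with GC content, with r of -0.573 across the members and -0.232 across all tested genes. The part of this relation in the calls made without siE7 replicate 1 was not tested.

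**Figure D4:**
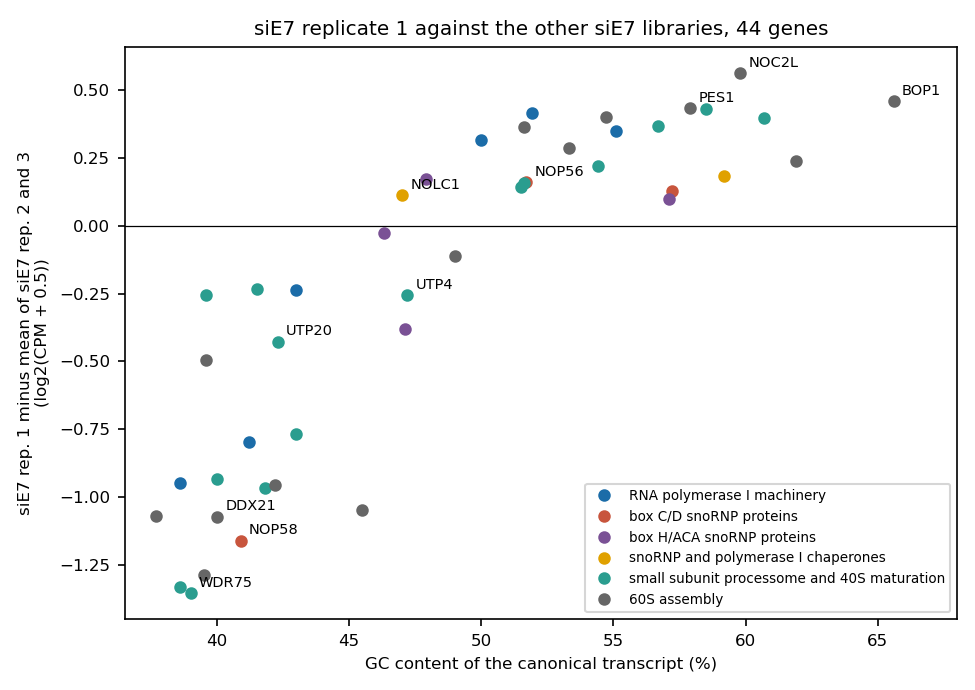
Difference of siE7 replicate 1 from the mean of siE7 replicates 2 and 3, in log2(CPM + 0.5) (y axis), against the GC content of the canonical transcript in percent (x axis), for the 44 genes coloured by role. Genes of low GC content such as WDR75, NOP58 and DDX21 lie below 0 and genes of high GC content such as NOC2L and PES1 lie above it (r = 0.855).

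Without siE7 replicate 1, 16 members were lower and 17 higher, which is 75.0% of the members against 58.4% of the tested genes. The 11 members called with it were called in the same direction without it, and their fit then rests on 2 siE7 libraries that lie close together. The log2 fold change without it was -0.70 for UTP4, -0.57 for UTP20, -0.69 for RRP9, -0.49 for NOP56, -0.46 for FBL, -0.68 for MRTO4, 0.31 for RRP12 and 0.87 for GNL2. The median of the members was then -0.0116. After removal of each library's GC trend, an alternative chosen after seeing the data, 11 members were lower and 9 higher, which is 45.5% against 50.7% of the tested genes. Of the 11 calls 10 were kept, and GNL2 was lost. In both of these fits 18 members were called in the same direction, a count that was not made over all tested genes.

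The number of calls fell when any other library was left out. Without siNC replicate 1, 2 or 3 there were 3, 3 and 4 lower and 1, 1 and 2 higher members, and without siE7 replicate 2 or 3 there were 3 and 4 lower and 3 and 2 higher. Calls also fell over all tested genes, from 2351 lower and 2639 higher with the 6 libraries. Without siNC replicate 1, 2 or 3 they were 1585, 1583 and 1547 lower and 1593, 1562 and 1567 higher. Without siE7 replicate 2 or 3 they were 1823 and 1903 lower and 1904 and 2047 higher. NOLC1, UTP4 and BOP1 were the 3 members that kept their call under each of the 15 alternatives run. The calls of FBL, POLR1C and GNL2 were lost in 9, 8 and 7 of them, of NOP56 in 6, of RRP9 in 4, of UTP20 in 3, and of RRP12 and MRTO4 in 2 each. The highest adjusted p over these alternatives was 0.00014 for NOLC1, 0.0069 for BOP1 and 0.013 for UTP4.

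A further list of 111 ribosome biogenesis genes, of which 108 were tested, gave 12 lower and 12 higher genes (22.2% called, against 34.0% of the tested genes) and a median log2 fold change of 0.0695. Lower were NIP7 (-0.53), a 60S assembly factor, RRS1 (-0.48), which brings the 5S particle to the pre-60S, and NOP9 (-0.48), an RNA-binding protein of 18S rRNA processing. Higher were NOP53 (0.71), which docks the RNA exosome on the pre-60S, MAK16 (1.03), a 60S factor, and NGDN (0.56), a protein of the small subunit processome. These are the 3 with the smallest p in each direction, and for each of them siE7 and siNC did not overlap. Because they were chosen by p in the same libraries, this separation adds no support. Over the list the groups did not overlap for 35 of the 108 (32.4%), against 47.6% of the tested genes. NOP9 lost its call when any library other than siE7 replicate 1 was left out, and the other 5 kept theirs under each alternative. Without siE7 replicate 1 the counts were 35 lower and 40 higher (69.4%, against 58.4% of the tested genes). Leaving out any siNC library gave 2 lower and 4 or 5 higher genes, siE7 replicate 2 gave 5 and 7, and siE7 replicate 3 gave 4 and 7.

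Of 78 tested cytosolic ribosomal protein genes, 0 were lower and 4 were higher at an adjusted p under 0.05 in edgeR, with 0 and 3 in DESeq2 and 0 and 4 in limma-voom. That is 5.13% called, against 34.0% of the tested genes. At an unadjusted p under 0.05, 11 of the 78 differed, against 6527 of the 14661 tested genes. The 4 were RPS29, RPS27, RPL34 and RPL13A, named like PCNA after their values were seen, and the median of the list was 0.0527. Leaving out siE7 replicate 1 gave 17 lower and 22 higher ribosomal protein genes (50.0%, against 58.4% of the tested genes), and without any other single library 0 lower and 2 or 3 higher. Of 41 DNA replication genes 20 were lower and 1, the clamp gene PCNA (0.43), was higher, with a median of -0.302. That is 51.2% called, against 34.0% of the tested genes. Without siE7 replicate 1 the replication genes gave 25 lower and 8 higher (80.5%, against 58.4% of the tested genes). Without any other single library they gave 11 to 13 lower and 0 or 1 higher. Differences between these lists and the members were not tested, and the lists are described by their counts.

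Regulators of these genes were read from the MYC and MAX network. MYC was at 117, 115 and 121 CPM in siNC and at 99.2, 90.5 and 90.7 CPM in siE7, with no overlap and a log2 fold change of -0.33 (SE 0.11, edgeR adjusted p = 0.03). Of the 10 tested genes of the network, 2 were lower and 2 higher (4 of 10, against 34.0% of the tested genes). There were 3 lower and 3 higher without siE7 replicate 1, and without any other single library 0 or 1 lower and 2 higher. Named after their values were seen, MLXIP (-0.48) was the other lower gene, and MXI1 (1.16) and MXD4 (0.81), which encode partners of MAX that repress MYC targets, were the higher ones. MXI1 and MXD4 kept their calls under each alternative. MYC lost its call when any library other than siE7 replicate 1 was left out (highest adjusted p 0.13 in edgeR), and without composition scaling. The call of MYC was also lost with the replicate block. MLXIP lost its call without composition scaling and without siNC replicate 2 or 3 or siE7 replicate 2 or 3. Of 18 targets of p53, the factor that is activated when ribosomal proteins free in the nucleoplasm bind MDM2, 2 were lower and 5 higher, 38.9% against 34.0% of the tested genes. CDKN1A, the inhibitor of cyclin-dependent kinases, was lower (-0.38, SE 0.12, edgeR adjusted p = 0.037), and lost its call with upper-quartile scaling, without composition scaling and when any library other than siE7 replicate 1 was left out. The p53 list gave 6 lower and 6 higher genes without siE7 replicate 1 (66.7%, against 58.4% of the tested genes). It gave 1 lower and 4 or 5 higher without any other single library. MDM2, the ubiquitin ligase of p53, was at 7.33, 8.72 and 8.21 CPM in siNC and at 3.91, 6.59 and 9.54 CPM in siE7, with a log2 fold change of -0.27 (SE 0.27, edgeR adjusted p = 0.46).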

How the data were processed

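Total RNA of 6 SCC-9 samples was measured as poly(A) RNA sequencing counts, 3 libraries per group, grouped by their titles. The deposited table holds whole-number counts per gene that the authors made without normalization. The submitters' processing notes name GRCh38, HISAT2 and DESeq2, and the counting tool, strand setting and annotation release are not given in the sources used here. Here, filterByExpr and TMM scaling of edgeR 4.0.16 (R 4.3.3) were followed by the robust quasi-likelihood test, two-sided, with Benjamini-Hochberg adjustment over 14661 genes. CPM were scaled by TMM, and 0.5 was added before log2. The scripts were checked on simulated data. Alternatives were DESeq2 1.42.0, limma-voom 3.58.1, other filters and scalings, a block on the replicate number, each library left out, and, added after seeing the data, removal of the GC trend (lowess, span 0.3). Depth was 25608192 to 29550264 counts, and the members held at least 101 counts in each library. Positions, lengths and GC content come from GENCODE 44 on GRCh38, where 25267 of 25349 identifiers were matched, 20655 of them with the same version.

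The members, role groups and other lists were chosen with earlier results of these data known. Genes with values per library are MKI67, the members with the smallest and the largest p in each role, DEGs and the 3 most abundant members per length. Other members with values per library (WDR75, FBL, GNL2, GNL3, PES1) were chosen after their values were seen. Ratios between members were not among the planned results. Of the other ribosome biogenesis genes the 3 with the smallest p in each direction are named, and of the regulators and p53 targets MYC, CDKN1A and MDM2. The qRT-PCR, protein and animal experiments and the splicing of exon 7 are not analysed here.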

Additional observations from a re-analysis of the deposited data

How the results depend on the processing

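MKI67 stayed between -3.27 and -3.04 under the 15 alternatives. The counts of lower and higher members were 4 and 10 without composition scaling and 11 and 9 with the GC trend removed, and 7 were higher with no filter on low counts. All tested genes gave 1632 lower and 4024 higher without composition scaling, and 3560 and 3877 with the GC trend removed. Calls over all genes with no filter on low counts are not given, so counts in that setting have no share beside them. Leaving out 1 library gave 3 to 16 lower and 1 to 17 higher members and 1 to 2 DEGs. Over all tested genes it gave 1547 to 4389 lower and 1562 to 4262 higher. The other ribosome biogenesis genes gave 4 lower and 27 higher without composition scaling, 23 and 28 with the GC trend removed, 19 higher with no filter on low counts, and 2 to 35 lower and 4 to 40 higher when 1 library was left out. The members' median was 0.179 without composition scaling, and its distance from that of all tested genes was -0.0674, against -0.066 without composition scaling, -0.141 with no filter on low counts, -0.14 with DESeq2, and between -0.0938 and -0.019 with 1 library left out (-0.0357 without siE7 replicate 1 and -0.019 without siE7 replicate 3). The titles share replicate numbers, but same-numbered libraries did not deviate together (r of -0.0552, -0.0191 and -0.0789), and no library correlated best with its own number. Deviations were taken from group means, so the outlying siE7 replicate 1 enters each siE7 deviation, and the check cannot settle whether libraries were paired. The replicate block gave 6 lower and 4 higher members, without the calls of POLR1C and FBL and, among the regulators, of MYC, 1 DEG, 11 lower and 15 higher other ribosome biogenesis genes, a members' median of -0.0154 and -3.21 for MKI67.

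Members near 0 changed sign, and the cause was not tested. Without composition scaling the median of all tested genes moved up by 0.168 (log2). In that setting UBTF was 0.152, NOP58 0.157, HEATR1 0.0177, NOP14 0.129, NAT10 0.156, PES1 0.14, NOP16 0.0407, EBNA1BP2 0.0932, NOC2L 0.0818 and NOC3L 0.153. With RLE scaling POLR1B was -0.0217 and DKC1 -0.00773, and with upper-quartile scaling UBTF was 0.0167, NAT10 0.0162 and PES1 0.0066. With at least 10 counts in every library UBTF was 0.0138, NAT10 0.014 and PES1 0.00347. DESeq2 gave POLR1B -0.0311, DKC1 -0.0169 and DDX21 -0.00843, limma-voom gave DDX21 -0.025, and the replicate block gave DDX21 -0.0192. With the GC trend removed POLR1B was -0.0621, UBTF 0.0211, NAT10 0.00269, PES1 0.0269 and DDX21 -0.0804.

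With 1 library left out, members whose sign changed ranged from -0.0484 to 0.134 (POLR1B), -0.197 to 0.0693 (UBTF), -0.229 to 0.208 (NOP58), -0.0109 to 0.0739 (DKC1), -0.0124 to 0.145 (TCOF1), -0.147 to 0.00309 (NOP14), -0.125 to 0.0464 (NAT10), -0.0363 to 0.152 (NOB1), -0.241 to 0.0656 (PES1), -0.142 to 0.274 (DDX21), -0.349 to 0.0394 (NOC2L) and -0.24 to 0.197 (NOC3L). The median SE of the members was 0.137 with the 6 libraries, and without siE7 replicate 1 differences as small as that of NOP14 (-0.147) passed the threshold.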
